A study of Mus musculus with 4 samples.

Results

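The genes described here are the CXCR2 ligands Cxcl1, Cxcl2, Cxcl3, Cxcl5 and Ppbp, the platelet-type chemokine Pf4 and the receptor gene Cxcr2, which are 7 of the 32285 genes counted. They were listed by name with earlier results of these data known, so their counts beside shares of all genes are descriptions. They were followed through 17 cell types in 4 tumours. Single cells positive for the leukocyte antigen CD45 were sequenced from YUMM1.7OVA tumours, a mouse melanoma line that expresses the ovalbumin antigen, grown in Rag2-/- mice, which have no T or B cells of their own. All mice received OT-1 T cells, which recognise ovalbumin, on day 7, and the tumours were taken on day 10, 72 h later. The 4 tumours came from the line Y1.7_NTT_3A6 (NTT), which is naive to targeted therapy, from Y1.7_RTT_2B12 (RTT), which is resistant to BRAF inhibition, and from the 2 derivatives Y1.7_RTT_ROSA26 and Y1.7_RTT_PTGS12KO, which carry guides against the neutral Rosa26 locus or against the cyclooxygenase genes Ptgs1 and Ptgs2. Resistant lines were kept in the BRAF inhibitor dabrafenib in culture, and the deletion lies in the tumour cells, so the sorted host cells keep both cyclooxygenase genes.

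There was 1 sample per tumour line. The labels speak of 1 tumour per condition and the study's legends of pooled tumours, so whether a sample holds more than 1 mouse is not settled here. No p-value can be formed, and every interval below is a 95% interval for counting error alone, which says nothing of how tumours of a line vary. Levels are a gene's unique molecular identifiers (UMIs, one per captured mRNA end) over all UMIs of the cells summed, given as CPM. Each molecule is read at its 3' end, so levels were not divided by gene length. The tumours held 6836 to 10296 cells and 69332486 to 146829369 UMIs, with a median of 7292.5 UMIs per cell in NTT and 12219 to 13280 in the resistant tumours. In NTT, RTT, RTT_ROSA26 and RTT_PTGS12KO, monocytes were 80.1%, 6.55%, 2.11% and 39.0% of cells, and macrophages 3.73%, 84.5%, 87.7% and 50.6%. Neutrophils were few in each tumour, between 106 and 146 cells.

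Chemokines of the CXC family guide leukocytes through G-protein-coupled receptors. CXCL1, CXCL2, CXCL3, CXCL5 and the processed form of PPBP carry a glutamate-leucine-arginine motif ahead of the first cysteines and bind CXCR2, the receptor through which neutrophils are called out of the blood. PF4 lacks that motif, does not signal through CXCR2 and binds heparin-like sugars. PF4 and PPBP are best known as cargo of platelet granules, while Cxcl1, Cxcl2 and Cxcl3 are early inflammatory genes that respond to NF-kappaB, a transcription factor activated by microbial products, TNF and interleukin-1.

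The 6 ligand genes lie together on chromosome 5 of the GRCm38 assembly, from 90759360 to 90905938, a span of 146.6 kb that holds 7 protein-coding genes, of which Cxcl15 is the only one not studied here. All are on the plus strand. Their order is Cxcl5 (90759360-90761624), Ppbp (90768518-90770063), Pf4 (90772435-90773383), Cxcl3 (90786103-90789600), Cxcl1 (90891241-90893115) and Cxcl2 (90903871-90905938). Cxcr2 lies apart, on chromosome 1 from 74153989 to 74161246.

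The stretches before the RefSeq start sites are shown for 5 ligands because the inflammatory and the platelet-type genes differ there. Each stretch runs from 120 to 31 bases before the start on the plus strand of GRCm38, and capitals mark the letters GGG, any 3 bases and TTCC, on either strand, the core of an NF-kappaB type site.
Cxcl1, chr5:90891125-90891214: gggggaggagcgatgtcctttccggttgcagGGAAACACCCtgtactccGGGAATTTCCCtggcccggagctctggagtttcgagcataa
Cxcl2, chr5:90903779-90903868: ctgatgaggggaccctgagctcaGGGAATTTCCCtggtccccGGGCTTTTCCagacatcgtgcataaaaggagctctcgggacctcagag
Cxcl3, chr5:90785981-90786070: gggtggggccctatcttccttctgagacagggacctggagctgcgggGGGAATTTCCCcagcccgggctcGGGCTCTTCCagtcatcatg
Ppbp, chr5:90768398-90768487: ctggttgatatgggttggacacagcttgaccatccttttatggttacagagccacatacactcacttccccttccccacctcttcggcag
Pf4, chr5:90772315-90772404: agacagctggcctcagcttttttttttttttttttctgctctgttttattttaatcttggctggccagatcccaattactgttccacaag

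In the 250 bases before the start, these letters occurred 3 times each in Cxcl1, Cxcl2 and Cxcl3, counting both strands. In each of the 3 genes the run GGGAATTTCCC gives 2 of these matches, which overlap because it reads nearly alike on both strands. Ppbp, Pf4 and Cxcr2 held none in their windows, and 4.65% of the 32851 RefSeq windows of the same length held at least 1. The letters TGANTCA (AP-1 type) occurred once, in Ppbp, 204 to 198 bases before the start, against 6.75% of all windows. TGACGTCA (cAMP response type) and the GATA type letters AGATAA and TGATAA were in no member's window, and in 1.55%, 9.99% and 7.94% of all windows. A window was given for 6 of the 7 members. These matches describe letters and say nothing of whether a factor bound there in these cells.

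**Figure D1:**
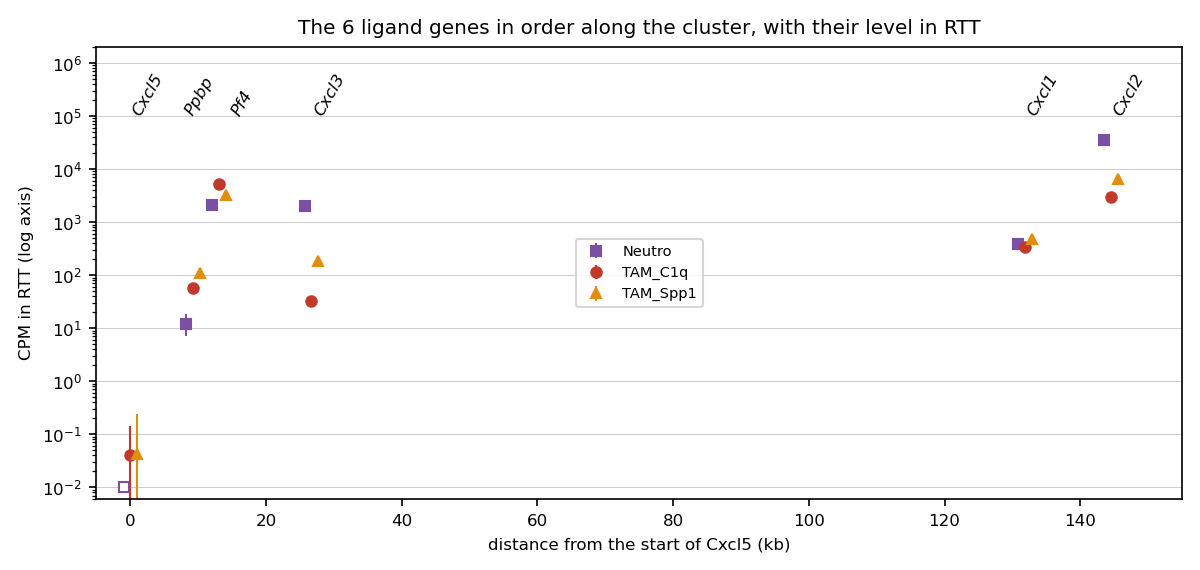
Distance of each ligand gene from the start of Cxcl5 (kb) against its level in the RTT tumour (CPM, log axis) in neutrophils (squares), TAM_C1q (circles) and TAM_Spp1 macrophages (triangles), with 95% counting intervals and an open square for 0 UMIs. Pf4 stands at 5253 CPM in TAM_C1q beside Ppbp at 56.91 CPM, and at the far end Cxcl2 stands at 35087 CPM in neutrophils.

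The receptor was a neutrophil gene in all 4 tumours. The 10 neutrophil markers, a list that includes Cxcr2 itself, summed to 35806 to 55933 CPM in the cells named neutrophils. Macrophages held 546.9 to 802.9 CPM of them and monocytes 387.4 to 493.0. Among macrophage types, Ctsk_Macro held 6312 to 7507 CPM and TAM_Spp1 280.4 to 2821. Neutrophils of NTT, RTT, RTT_ROSA26 and RTT_PTGS12KO held 224.3, 379.2, 220.9 and 258.6 CPM of Cxcr2. The lowest of these lay far above the highest value of the next cell type, 6.929 CPM in cDC2 dendritic cells, so the ranges did not overlap. Cxcr2 is among the marker genes by which the authors describe their neutrophil cluster, and its height there is a description of that cluster. With each cell thinned to 2000 UMIs, which levels depth, 32.1%, 47.3%, 44.5% and 48.8% of neutrophils had a Cxcr2 UMI, against 0.190% of natural killer (NK) cells, a type taken here as a background because it should lack the gene. NK shares are pooled over tumours, and of the 1050 NK cells thinned 707 came from NTT, 306 from RTT_PTGS12KO and only 25 from RTT_ROSA26, so they are not a matched background for RTT or RTT_ROSA26. Whether UMIs in NK cells came from free RNA, doublets or the cells themselves was not tested. Unthinned shares were 76.4% to 86.3%. Neutrophils were 1.19% to 2.14% of cells and held 80.6%, 72.7%, 67.3% and 58.2% of the Cxcr2 UMIs of these tumours.

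Between tumours, Cxcr2 in neutrophils differed by less than 2-fold. On the log2 scale NTT was lower than RTT (-0.76, -0.97 to -0.54), RTT_PTGS12KO was slightly higher than RTT_ROSA26 (0.23, 0.03 to 0.42), and RTT_ROSA26 was lower than RTT (-0.78, -0.95 to -0.60). By summed level RTT was the highest tumour, while by the thinned shares above RTT lay among the resistant tumours and NTT was lowest, so the order depended on the measure. In macrophages Cxcr2 was at 1.722 to 2.213 CPM. S100a9, an abundant neutrophil gene, was also found there, and if all of it had come from neutrophils, 0.944 to 1.28 CPM of Cxcr2 would have come with it. The part of free or engulfed neutrophil RNA in the remainder was not tested.

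Cxcl2, also called MIP-2, had the highest level of the CXCR2 ligands over all cells of each tumour. Neutrophils of NTT, RTT, RTT_ROSA26 and RTT_PTGS12KO held 29375, 35087, 20853 and 23051 CPM, with a median of 235 to 256 UMIs in a single neutrophil. Of the 7 types with a level in every tumour, TAM_Spp1 macrophages came next at 3434 to 6550 CPM, a range that did not overlap with that of neutrophils. From TAM_Spp1 down each type overlapped with the next, through Infl_Mono monocytes with a median over tumours of 2123 CPM to cDC2 with 1214. Cxcl2 is also among the authors' neutrophil markers. Because neutrophils were so few, they held only 17.5%, 12.6%, 19.1% and 12.0% of all Cxcl2 UMIs in NTT, RTT, RTT_ROSA26 and RTT_PTGS12KO. Monocytes held 76.9% in NTT, and macrophages 81.5%, 77.5% and 55.1% in the resistant tumours. Cxcl2 UMIs were also frequent in NK cells, where 24.4% of thinned cells had one, and 44.0% of the 25 in RTT_ROSA26. The thinned shares were 52.1% to 59.4% of macrophages in the resistant tumours (53.7% in RTT_ROSA26) and 98.6% to 99.3% of neutrophils.

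Cxcl3 was also highest in neutrophils and TAM_Spp1, at a lower level than Cxcl2. Its neutrophil values were 1646, 2022, 1284 and 1106 CPM in NTT, RTT, RTT_ROSA26 and RTT_PTGS12KO. The next type, TAM_Spp1, had 737.5, 187.3, 196.2 and 64.22 CPM for the tumours as just listed, and the ranges of these types did not overlap. The NTT value rests on 143 UMIs in 4 of 20 cells, with loads from 0 to 1434 CPM. Of all Cxcl3 UMIs, neutrophils held 35.3%, 30.6%, 37.7% and 31.8%, a far larger part than of Cxcl2. In thinned cells, 38.2% to 57.5% of neutrophils but 2.92% to 7.18% of macrophages had a Cxcl3 UMI, with pooled NK cells at 2.29%. In RTT_ROSA26, macrophages, at 5.28%, were below the share of the 25 NK cells of that tumour.

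Cxcl1, also called KC, was found in neutrophils, macrophages and the Myofibrobl type. Neutrophils stood at 360.1, 391.8, 224.9 and 174.5 CPM in NTT, RTT, RTT_ROSA26 and RTT_PTGS12KO. TAM_Spp1 macrophages stood at 480.7 CPM in RTT, 258.8 in RTT_ROSA26 and 103.7 in RTT_PTGS12KO, and TAM_C1q macrophages at 337.7, 116.9 and 36.94. In RTT and RTT_ROSA26, TAM_Spp1 was above neutrophils, and in NTT and RTT_PTGS12KO neutrophils were above TAM_Spp1, so of the 7 types with a level in every tumour the first 4 overlapped with one another's ranges. Myofibrobl cells, too few in NTT for a level, had 284.8 CPM for RTT, 189.9 for RTT_ROSA26 and 314.7 for RTT_PTGS12KO. The value for RTT_PTGS12KO came from 37 cells, with loads from 124.1 to 546.2 CPM, and was above the neutrophils and TAM_Spp1 of that tumour. A CD45 gate should remove stromal cells, and cells of this type held 1061 to 1678 CPM of 5 stromal markers and 7754 to 11767 CPM of the 9 macrophage markers. Thinned, 23.3%, 18.6% and 35.1% of them had a Cxcl1 UMI. In macrophages the UMIs sat in few cells. In TAM_C1q, 28.0%, 19.8% and 12.2% of cells had a Cxcl1 UMI in RTT, RTT_ROSA26 and RTT_PTGS12KO, the 10% with most held 84.0% of the UMIs in RTT, and 1 cell reached 159 UMIs. Thinned shares of macrophages with a Cxcl1 UMI were 15.7% in RTT, 8.30% in RTT_ROSA26 and 4.48% in RTT_PTGS12KO. NK cells were at 1.71% pooled, at 1.96% in RTT_PTGS12KO and at 4.00% of 25 cells in RTT_ROSA26, and RTT had too few for a value.

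Cxcl5, which in many tissues is made by epithelial and stromal cells, was nearly absent from the sorted cells. It gave 150 UMIs in 34 of 33368 cells. Most were in single cells of the Myofibrobl type, with 58 UMIs in an NTT cell, 34 in an RTT cell and 26 in an RTT_PTGS12KO cell. No other cell had more than 2. Cells that the CD45 gate removed could not be seen, so these data do not speak of Cxcl5 in the tumours as wholes.

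**Figure D2:**
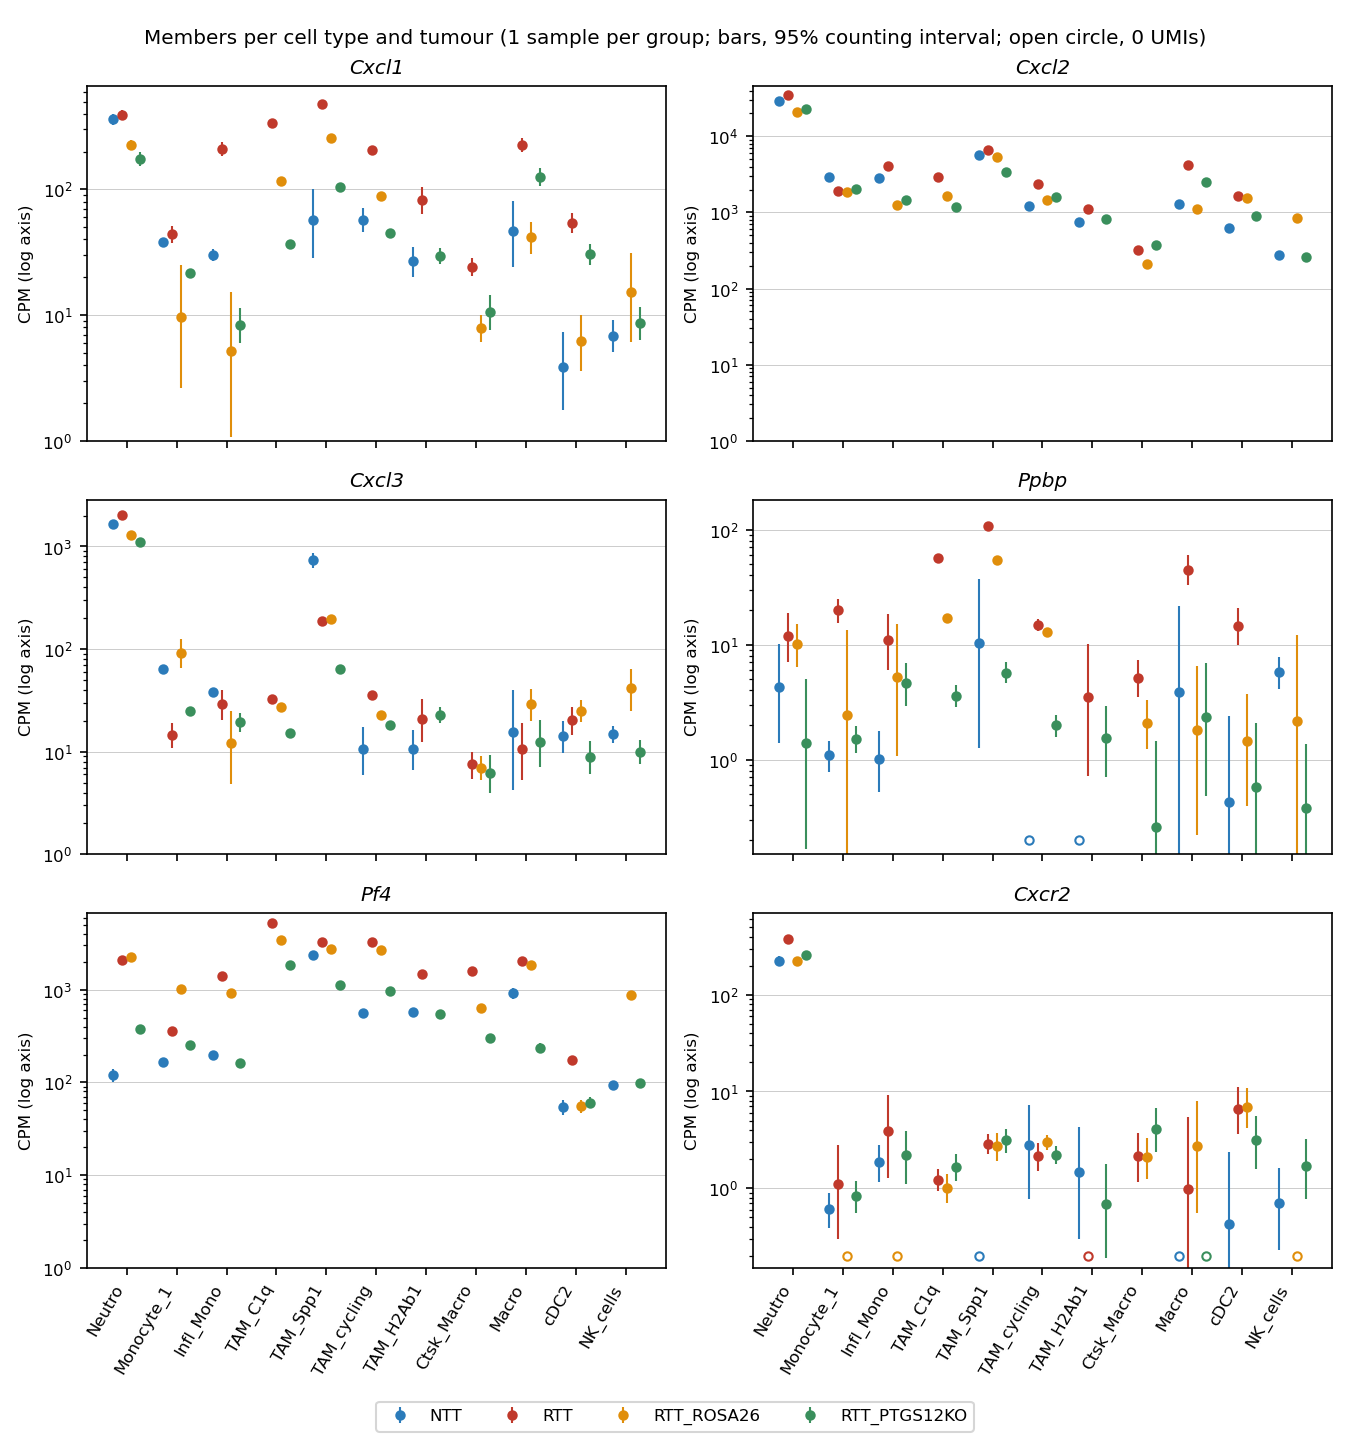
Level of 6 genes (CPM, log axis) in 11 cell types, 1 point per tumour with its 95% counting interval (lower ends cut by the axis), open circles marking 0 UMIs, for types with at least 20 cells. Cxcr2 and Cxcl2 stand highest in neutrophils in each tumour, while Pf4 and Ppbp stand highest in TAM_C1q or TAM_Spp1 in the 3 resistant tumours.

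Pf4 was mostly in macrophages in the 3 resistant tumours. In NTT, where monocytes were most of the cells, they held 66.2% of its UMIs and macrophages 23.8%. It stood at 5253 CPM in TAM_C1q of RTT, 3459 in RTT_ROSA26 and 1838 in RTT_PTGS12KO. Thinned to 2000 UMIs, 95.9%, 92.8% and 85.9% of these cells had a Pf4 UMI, against 9.14% of pooled NK cells and 28.0% of the 25 in RTT_ROSA26. Pf4 is among the authors' TAM_C1q markers, so its height there describes the cluster. TAM_C1q had only 12 cells in NTT and was not given a level there. TAM_Spp1 held 3272, 2773 and 1123 CPM in RTT, RTT_ROSA26 and RTT_PTGS12KO, and 2347 CPM in the 20 NTT cells. The loads of those 20 cells ranged from 174.9 to 3961 CPM. TAM_cycling held 565.6 CPM in NTT and 3279, 2659 and 972.7 in the resistant tumours. Unlike Cxcl1, Pf4 was spread over cells: a TAM_C1q cell held a median of 55 UMIs in RTT, 38 in RTT_ROSA26 and 19 in RTT_PTGS12KO, and the top 10% of cells held 32.4% to 33.9% of the UMIs.

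Ppbp lies next to Pf4 in the genome, and its UMIs were also in macrophages, at a far lower level. TAM_Spp1 stood at 107.8 CPM in RTT, 54.10 in RTT_ROSA26 and 5.717 in RTT_PTGS12KO, and TAM_C1q at 56.91, 17.12 and 3.601. TAM_cycling stood lower, at 14.83, 12.76 and 1.980 CPM. Macrophages held 96.2%, 97.8% and 74.7% of all Ppbp UMIs in RTT, RTT_ROSA26 and RTT_PTGS12KO. In NTT, 308 macrophages gave 2 of the 105 UMIs, monocytes 55 and NK cells 41. Its UMIs sat in few cells, since 15.1% of TAM_C1q cells had one in RTT, 8.99% in RTT_ROSA26 and 3.53% in RTT_PTGS12KO, while 1 cell reached 112 UMIs. Thinned shares of macrophages with a UMI were 4.99%, 2.47% and 0.423% in RTT, RTT_ROSA26 and RTT_PTGS12KO. None of the 306 thinned NK cells of RTT_PTGS12KO had a UMI, against 0.283% of the 707 in NTT and 4.00% of the 25 in RTT_ROSA26. In Macro, a type counted apart from the other macrophages, the 46 UMIs of RTT came from 1.01% of its 99 cells.

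Platelet markers were near 0 in macrophages as a class, which held most of these transcripts in the resistant tumours. The sums are over all macrophages of a tumour and not over the few that held Ppbp. The 10 platelet and megakaryocyte markers searched, among them Itga2b, Gp1ba, Gp9 and Tubb1, summed to 1.00 to 1.48 CPM in macrophages of the 4 tumours, and none reached 10 CPM. Monocytes had 6.87 CPM in NTT, of which Gp6 gave 237 of 354 UMIs, 5.47 in RTT_PTGS12KO, and 1.02 and 2.00 CPM in RTT and RTT_ROSA26. Several of these sums are a few UMIs, 6 in NTT macrophages, 5 in RTT monocytes and 2 in RTT_ROSA26 monocytes, and no order is read from them. Neutrophils differed, with no marker UMI in NTT and RTT_PTGS12KO and 3.32 and 3.94 CPM in RTT and RTT_ROSA26, from 5 and 9 UMIs. Without the 853 cells that had a marker UMI, the number of members past 2-fold stayed the same in each of the 9 comparisons of all cells, monocytes and macrophages.

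**Figure D3:**
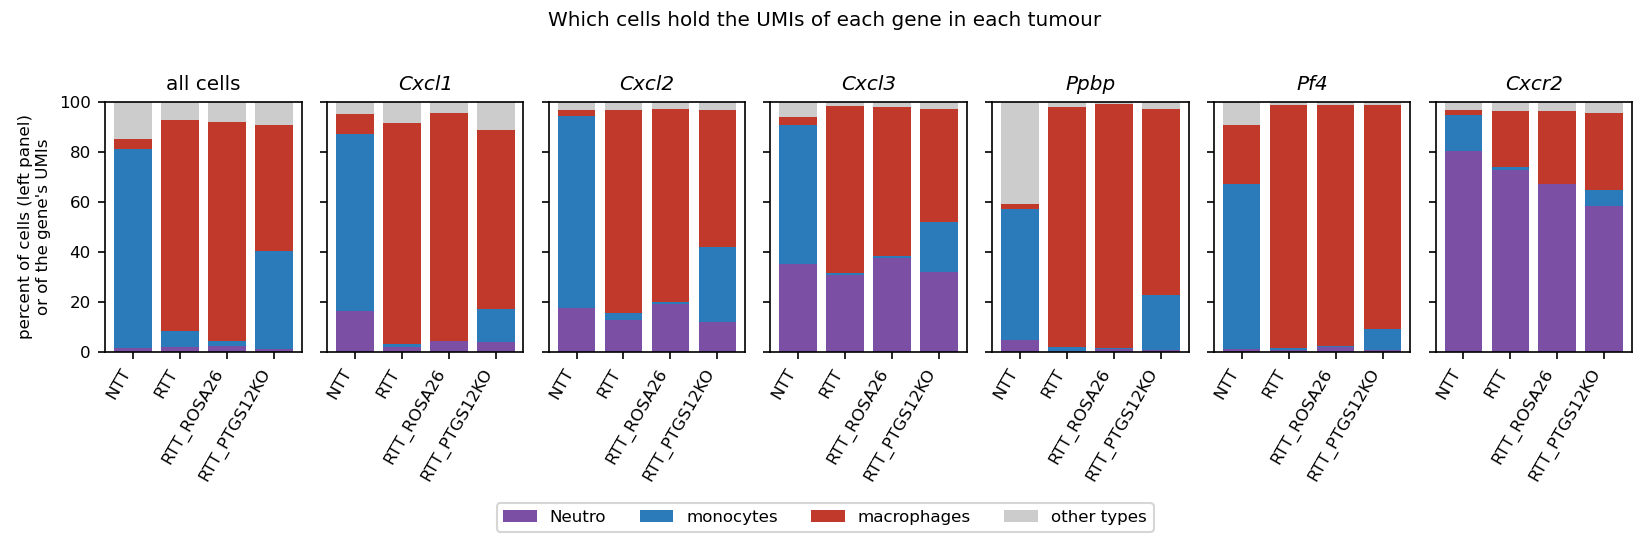
Percent of all cells (left panel) and of the UMIs of each gene (other panels) that neutrophils, monocytes, macrophages and other types held in each tumour, 1 bar per tumour. Neutrophils hold 58.2% to 80.6% of Cxcr2 and 30.6% to 37.7% of Cxcl3, and macrophages hold 89.9% to 97.4% of Pf4 in the 3 resistant tumours.

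NTT against RTT asked how the ligands differ between tumours naive to therapy and resistant ones. Over all cells, the log2 ratio of NTT to RTT was -5.05 for Ppbp, -4.19 for Pf4 and -3.03 for Cxcl1, but -0.35 for Cxcl2 and -0.12 for Cxcl3. The members past 2-fold lower were 3 of the 5 tested, that is with at least 10 CPM in either tumour, against 8.26% of all genes. In bulk sums of this kind, fewer cells of a type and less RNA per cell cannot be told apart. Over the 8 cell types that both tumours held, giving NTT and RTT the same shares of types moved the Pf4 ratio from -3.80 to -1.23 and the Ppbp ratio from -5.71 to -3.63. Cxcl1 moved from -2.93 to -1.99. These 8 types leave out TAM_C1q, with 12 NTT cells, which held 62.3% of the Pf4 and 48.3% of the Ppbp UMIs of RTT. Cxcl3 changed its sign, from -0.86 to 1.13, with the 20 NTT cells of TAM_Spp1 at 737.5 CPM among the types weighted. Only 4 of these 20 cells had a Cxcl3 UMI, and their loads ranged from 0 to 1434 CPM. The change of sign is thus not settled.

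Within macrophages, 308 in NTT and 6734 in RTT, the ligands were lower in NTT. Ppbp stood at 0.4921 CPM in NTT, from 2 UMIs, and at 57.48 in RTT, a log2 ratio of -6.87 (-9.91 to -5.01). Cxcl1 stood at 51.92 and 325.4 CPM (-2.65, -2.85 to -2.45), and Pf4 at 793.3 and 4158 CPM (-2.39, -2.44 to -2.34). Cxcl2 stood at 1176 and 3495 CPM (-1.57, -1.61 to -1.53). These 4 of 5 tested members were past 2-fold lower, against 4.21% of all genes, and the members' median log2 ratio was -2.39 beside 0.00 over all genes. Cxcl3, at 44.54 and 68.11 CPM, was within 2-fold (-0.61). That value is not stable, since the NTT loads ranged from 9.414 to 112.2 CPM and leaving out 1 load gave ratios from -2.69 to 0.19. Cxcl5 and Cxcr2 were under 10 CPM in macrophages, in monocytes and over all cells of each tumour and were not counted. NTT macrophages were a different mixture, with 192 TAM_H2Ab1 and 79 TAM_cycling cells and few TAM_C1q. In TAM_cycling, which both tumours held, Pf4 was lower in NTT by a log2 ratio of -2.54 (-2.64 to -2.44) and Cxcl1 by -1.84 (-2.17 to -1.52). Cxcl2 was within 2-fold there (-0.97) and in TAM_H2Ab1 (-0.59), unlike in the class as a whole, and Cxcl3 was at -1.75 (-2.60 to -1.02) in TAM_cycling, from 15 NTT UMIs, and at -0.96 in TAM_H2Ab1. In TAM_H2Ab1, Pf4 was at -1.34 and Cxcl1 at -1.62. The Cxcl1 UMIs of RTT there lay in 6 of 63 cells, with loads from 2.542 to 185.0 CPM. In TAM_cycling the NTT loads of Cxcl1 ranged from 2.207 to 121.1 CPM, so the size of both Cxcl1 ratios is not settled. Ppbp had 0 UMIs in the 79 NTT cells and 14.83 CPM in RTT. With the floor of 3 UMIs it was 7.04-fold lower in NTT, and the counting interval reached down to 5.69-fold.

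Monocytes gave another order. Pf4 stood at 173.9 CPM in NTT and 630.1 in RTT (-1.86), Cxcl1 at 35.95 and 87.07 (-1.28) and Ppbp at 1.067 and 17.54 (-4.04). Cxcl3 went the other way, at 58.37 CPM in NTT and 18.35 in RTT, a log2 ratio of 1.67 (1.37 to 1.99). Cxcl2 was near even, at 2920 and 2455 CPM (0.25). By type, Cxcl1 was at -2.80 in Infl_Mono, with 138 RTT cells, and at -0.22 in Monocyte_1. The RTT loads ranged from 77.71 to 438.1 CPM in Infl_Mono and from 4.911 to 103.1 in Monocyte_1, so whether these types differ is not settled. Cxcl2 had opposite signs, 0.65 in Monocyte_1 and -0.54 in Infl_Mono. Cxcl3 was at 2.14 in Monocyte_1 and 0.40 (-0.09 to 0.92) in Infl_Mono, and Pf4 was lower in NTT in both, at -1.10 and -2.83. Thus 3 of 5 tested members were past 2-fold lower in NTT and 1 was past 2-fold higher, against 1.93% and 2.02% of all genes. The 3 loads of the RTT pool, which are technical repeats, ranged from 39.08 to 110.8 CPM for Cxcl1 and from 2.345 to 36.04 for Ppbp in monocytes, so few cells carried these values. In thinned RTT monocytes, 4.41% of cells had a Cxcl1 UMI and 0.960% a Ppbp UMI.

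RTT_PTGS12KO against RTT_ROSA26 asked what differs when the resistant tumour cells lack both cyclooxygenases, enzymes that make the precursor of prostaglandin E2. Over all cells, Ppbp was lower in RTT_PTGS12KO by a log2 ratio of -2.86, Pf4 by -1.70, Cxcl1 by -1.39 and Cxcl3 by -1.05. These were 4 of 5 tested members, against 2.44% of all genes, and Cxcl2 was within 2-fold at -0.27. With equal shares of 11 cell types, the ratios became -2.59 for Ppbp, -1.26 for Pf4, -0.98 for Cxcl1 and -0.88 for Cxcl3.

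Within macrophages of these tumours, Ppbp stood at 2.958 CPM in RTT_PTGS12KO and 19.04 in RTT_ROSA26, a log2 ratio of -2.69 (-2.88 to -2.50). Pf4 stood at 1170 and 2775 CPM (-1.25, -1.26 to -1.24), and Cxcl1 at 50.64 and 114.9 CPM (-1.18, -1.23 to -1.13). Cxcl3 stood at 25.25 and 46.80 CPM (-0.89) and Cxcl2 at 1698 and 1947 (-0.20). The members past 2-fold lower were 3 of 5 tested, against 1.17% of all genes, with a median of -1.18 beside -0.09 over all genes.

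By type, the members differed. Ppbp was lower in RTT_PTGS12KO in the 4 types tested, with log2 ratios of -2.25 in TAM_C1q, -3.24 in TAM_Spp1, -2.69 in TAM_cycling and -2.86 in neutrophils. The neutrophil value came from 2 and 23 UMIs, with an interval of -5.98 to -0.84. These types reached 10 CPM only through RTT_ROSA26, so that cut favoured a lower value in RTT_PTGS12KO. Under it, Ctsk_Macro was at -3.02, cDC2 at -1.35, Monocyte_1 at -0.69, Infl_Mono at -0.19 and Macro at 0.38. All but Ctsk_Macro of these had intervals that included 0. Pf4 was lower in 8 of 9 types, from -2.97 in Macro to -0.91 in TAM_C1q, with cDC2 at 0.11 (-0.19 to 0.42). Cxcl1 split the types. It was lower in TAM_C1q (-1.66), TAM_Spp1 (-1.32), TAM_cycling (-0.99) and neutrophils (-0.37), and higher in cDC2 (2.30, 1.56 to 3.13) and Macro (1.60, 1.12 to 2.11). In Monocyte_1 (1.16) and Ctsk_Macro (0.42) the intervals included 0. Cxcl3 was lower in 7 of 8 types, from -1.88 in Monocyte_1 to -0.21 in neutrophils, with TAM_Spp1 at -1.61. Infl_Mono was at 0.67 (-0.43 to 2.02). The Monocyte_1 value stood beside 38 UMIs in 5 of 54 RTT_ROSA26 cells. Cxcl2 was lower in TAM_C1q (-0.49) and TAM_Spp1 (-0.65) and higher in TAM_cycling (0.13) and Ctsk_Macro (0.87), so the near-even macrophage value joined types with opposite signs. In Macro it was higher by 1.17.

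Among monocytes, 4015 in RTT_PTGS12KO and 144 in RTT_ROSA26, Pf4 was lower in RTT_PTGS12KO at 240.1 against 949.0 CPM (-1.98, -2.08 to -1.89). The 3 loads of RTT_ROSA26 ranged from 249.1 to 1666 CPM, wider than the counting interval. NK cells of the same tumours held 97.78 and 880.8 CPM of Pf4, the latter from 26 cells, so the monocyte level of RTT_ROSA26 was close to that of its NK cells. Cxcl1 was higher in RTT_PTGS12KO, at 20.02 against 8.981 CPM (1.16, 0.22 to 2.29), but the RTT_ROSA26 value comes from 9 UMIs. Of 4 members tested, 1 was past 2-fold higher and 1 lower, against 2.62% and 2.82% of all genes. The Pf4 monocyte ratio was -0.62 without the 5% of cells with the most UMIs in each type, so few large cells carried it.

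RTT_ROSA26 against RTT compares resistant tumours that both keep Ptgs1 and Ptgs2, and it shows how far such tumours lay apart. It shares RTT with the first comparison and RTT_ROSA26 with the second, so the 3 sets of ratios are not independent. In macrophages, Ppbp was lower in RTT_ROSA26 by a log2 ratio of -1.59 (-1.67 to -1.52) and Cxcl1 by -1.50 (-1.53 to -1.47), 2 of 5 tested members past 2-fold, against 0.893% of all genes. Cxcl2 stood at -0.84, Pf4 at -0.58 and Cxcl3 at -0.54, with a member median of -0.84 beside 0.07 over all genes. For Cxcl1, the distance between these control tumours was larger than that between RTT_PTGS12KO and RTT_ROSA26, which was -1.18. For Ppbp and Pf4 it was smaller, -1.59 beside -2.69 and -0.58 beside -1.25. With 1 sample per line, the difference between the knockout and the control and the difference between any 2 tumours cannot be told apart.

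In each of TAM_C1q, TAM_Spp1 and TAM_cycling, Cxcl1, Ppbp and Pf4 were in the order RTT, RTT_ROSA26, RTT_PTGS12KO from high to low. For Ppbp, TAM_cycling hardly differed between the control tumours (-0.22, against -1.73 in TAM_C1q and -0.99 in TAM_Spp1), while RTT_PTGS12KO was lower than RTT_ROSA26 by -2.69. For Pf4 the control tumours were within 0.60 on the log2 scale in these 3 types. Other types went differently: in Ctsk_Macro the control tumours lay further apart (-1.32) than RTT_PTGS12KO and RTT_ROSA26 (-1.08), and in cDC2 the values were -1.64 and 0.11. Over all cells of RTT_ROSA26 against RTT, Cxcl1 (-1.43) and Ppbp (-1.51) were past 2-fold lower, 2 of 5 tested, against 1.48% of all genes. In monocytes, with 144 cells in RTT_ROSA26, Cxcl1 (-3.28) and Ppbp (-2.14) were past 2-fold lower and Cxcl3 (1.29) past 2-fold higher, of 5 tested, against 3.10% and 2.52% of all genes. The Cxcl3 value came from the 54 Monocyte_1 cells of RTT_ROSA26 (2.66), while Infl_Mono was at -1.25 (-2.67 to -0.07). Of those 54 cells, 5 held the 38 UMIs, and loads ranged from 13.24 to 155.5 CPM.

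**Figure D4:**
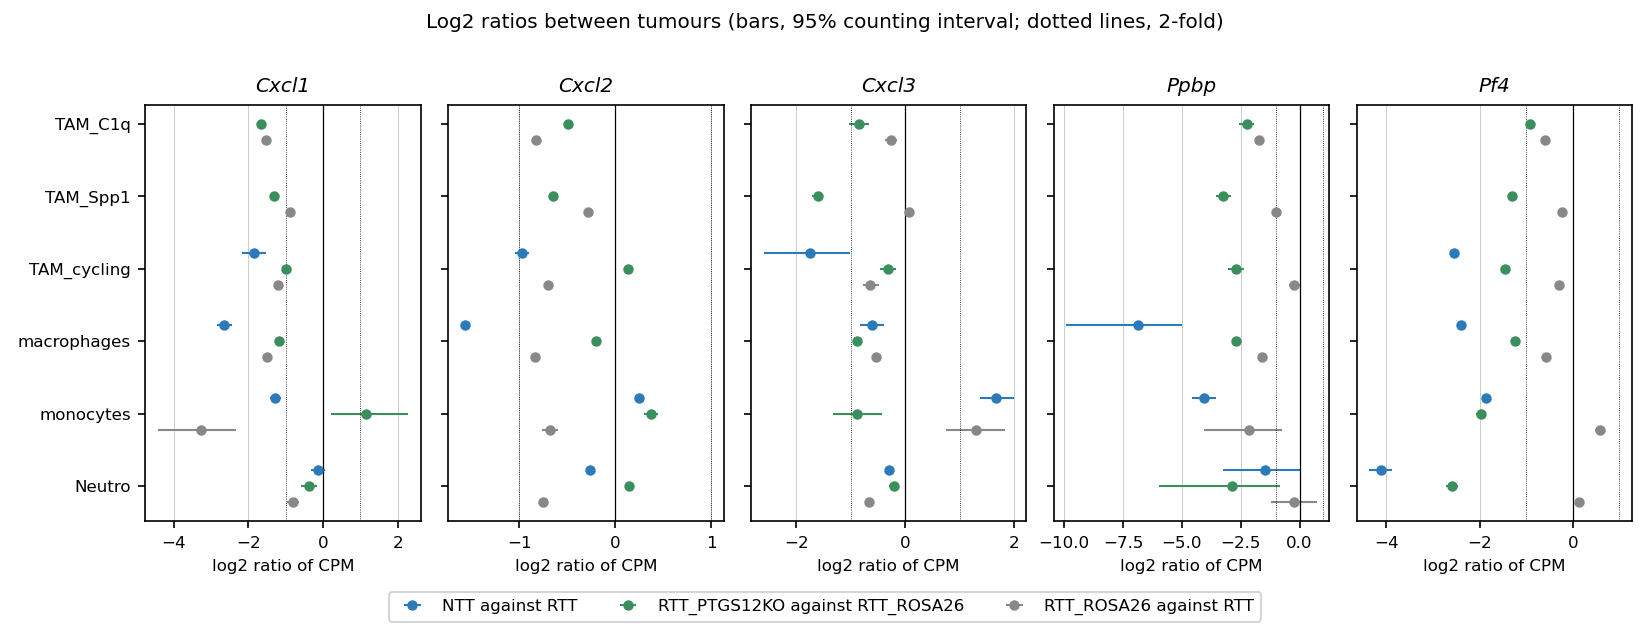
Log2 ratio of CPM (horizontal axis) of 5 ligands in 6 cell sets for NTT against RTT, RTT_PTGS12KO against RTT_ROSA26 and RTT_ROSA26 against RTT, with 95% counting intervals and dotted lines at 2-fold; ratios resting on a floor or under 10 CPM are not drawn. Ppbp lies left of the 2-fold line in TAM_C1q, TAM_Spp1 and TAM_cycling for RTT_PTGS12KO against RTT_ROSA26, while Cxcl2 stays within 2-fold in all sets of that comparison.

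In neutrophils, the inflammatory ligands were within 2-fold in the 3 comparisons made. Cxcl2 was at -0.26, 0.14 and -0.75 for NTT against RTT, RTT_PTGS12KO against RTT_ROSA26 and RTT_ROSA26 against RTT. Cxcl3 was at -0.30, -0.21 and -0.66, and Cxcl1 at -0.12, -0.37 and -0.80. Ppbp, at 4.297, 11.95, 10.06 and 1.390 CPM in NTT, RTT, RTT_ROSA26 and RTT_PTGS12KO, differed more, with ratios of -1.48 (-3.26 to 0.01), -2.86 and -0.25 from 2 to 23 UMIs per tumour. Pf4 stood at 119.5, 2072, 2277 and 374.7 CPM in neutrophils of NTT, RTT, RTT_ROSA26 and RTT_PTGS12KO, and its ratios were -4.12 (-4.37 to -3.87), -2.60 and 0.14 in the 3 comparisons.

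The macrophage gene C1qa was also present in neutrophils, at 771.8 to 1938 CPM. Neutrophils had 0.155, 1.50, 1.17 and 0.422 Pf4 UMIs per C1qa UMI in NTT, RTT, RTT_ROSA26 and RTT_PTGS12KO. In macrophages the same ratio was 0.277, 1.60, 1.09 and 0.570, so it followed the same order over the tumours. The macrophage marker list of 9 genes summed to 6007 to 23489 CPM in neutrophils, and 18316 to 39091 in macrophages, and none of the 9 was at 0 in either. Among neutrophils thinned to 2000 UMIs, those with a Pf4 UMI had Cxcr2 in 27.9% of cells in RTT, 23.8% in RTT_ROSA26 and 33.3% in RTT_PTGS12KO. Those without Pf4 had Cxcr2 in 61.2%, 69.7% and 52.5%. The part of macrophage RNA in the Pf4 of neutrophils was not tested beyond these values.

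Members were detected together to unequal degrees. In RTT macrophages thinned to 2000 UMIs, 94.6% of the 1056 cells with Cxcl1 also had Cxcl2, against 52.9% of the 5674 cells without. In RTT_ROSA26 the shares were 89.7% and 50.4%, and in RTT_PTGS12KO 85.8% and 50.6%. Cells with Ppbp had Pf4 in 98.5% of 336 cells in RTT, against 82.3% of cells without Ppbp, and Cxcl3 in 18.5% against 6.58%. In RTT_ROSA26 the shares with Pf4 were 95.9% against 79.7%. Cxcl1 and Ppbp were hardly linked, with Cxcl1 in 18.2% of Ppbp-positive and 15.6% of Ppbp-negative RTT macrophages. At this depth Cxcl1 was detected in 15.7% and Ppbp in 4.99% of RTT macrophages. With shares so low, most cells with either gene would lack the other even without a link. These values therefore do not show whether the same cells make both.

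The genes most like each member were taken over 42 sums of a cell type and a tumour, which share libraries and differ in depth, so their Pearson correlations of log2(CPM + 1) are descriptions. Pf4 ran with Apoe (0.95), which carries lipids out of macrophages, Abca1 (0.94), a cholesterol exporter, and Stab1 (0.94), a scavenger receptor. Cxcl2 ran with Il1a (0.91), which encodes interleukin-1 alpha, Clec4e (0.90), the receptor Mincle, and E230032D23Rik (0.90). Cxcl3 also had Il1a first (0.88), followed by Gm28809 and Mirt2 (0.87 each), and its correlation with Cxcl2 was 0.87. Cxcl1 had weaker partners, Igf1r, Mafg and Csf1 at 0.74 each. Ppbp had Gabbr2 (0.77), Gm47123 (0.75) and Trf (0.71), the gene of the iron carrier transferrin, and its correlation with Pf4 was 0.68. Cxcr2 ran with Stfa1, Ankrd22 and Ifit1bl2 at 0.94 each. Cxcl5, from few UMIs, ran with Lum (0.86), a matrix proteoglycan of fibroblasts, Piezo2 (0.85) and Mtcl1 (0.84).

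A list of 26 other genes of neutrophil recruitment and its inflammatory triggers, among them Il1b, Tnf, Csf3r, Ccl3 and S100a9, differed less in macrophages, with medians of -0.30, -0.10 and -0.43 for the 3 comparisons. For NTT against RTT, 19 were tested and 2 were past 2-fold higher, Csf3r (1.26), the receptor for the neutrophil growth factor G-CSF, and S100a8 (1.11), against 5.92% of all genes. Another 2 were past 2-fold lower, against 4.21% of all genes, namely Il1a (-1.42) and Nfkbia (-1.01), the NF-kappaB inhibitor that NF-kappaB itself induces. For RTT_PTGS12KO against RTT_ROSA26, 17 were tested, of which Fpr2 (1.19), a formyl peptide receptor, was past 2-fold higher, against 2.62% of all genes, and none was past 2-fold lower, against 1.17%. Ccl3, at 192.4 and 383.5 CPM, and Tnf (-0.95) were lowest and just within 2-fold, and the median of all genes was -0.09. For RTT_ROSA26 against RTT, 19 were tested, 3 were past 2-fold lower, against 0.893% of all genes, with Fpr2 (-1.64) and Fpr1 (-1.62) lowest, and none was past 2-fold higher, against 0.796%. Of 6 granule and receptor partners of PF4 and PPBP, such as the granule proteoglycan gene Srgn, 4 were tested, and 1 was past 2-fold lower, higher and lower in the 3 comparisons in turn, against 4.21%, 2.62% and 0.893% of all genes.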

How the data were processed

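The authors sorted live CD45+ cells, labelled each sample with cell multiplexing oligos, pooled them and loaded the pool 3 times on a 10x Genomics chip. They aligned to mm10 with Cell Ranger, removed cells by genes, mitochondrial and ribosomal content, and named 17 cell types with Seurat 4.3.0. The deposited matrix holds raw UMI counts, with cell type and tumour per cell in the deposited metadata, and both were used as given. Pairs of loads shared 22 to 40 of 10974 to 11394 barcodes, and doublets were not called again.

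UMIs were summed per tumour and type (levels from 20 cells, ratios from 50) and divided by the sum's total. Monocytes are Monocyte_1, Infl_Mono and Monocyte_3; macrophages are TAM_C1q, TAM_Spp1, TAM_cycling, TAM_H2Ab1 and Ctsk_Macro. Intervals are exact Poisson, Clopper-Pearson and conditional binomial, and a sum of 0 was set to 3 UMIs. Ratio code was tested on simulated data. Genes counted from 10 CPM in the higher tumour. The rule for named genes took all 7 members, the 3 genes most like each, and the 2 highest and 2 lowest genes of the recruitment list in macrophages. Members and lists were chosen with earlier results of these data known. Gene positions are from GENCODE and promoters from RefSeq, both on GRCm38. Python 3.11.15, numpy 2.4.6, scipy 1.17.1, pandas 2.3.3 and edgeR 4.0.16 (TMM scaling as an alternative only) were used.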

Additional observations from a re-analysis of the deposited data

Results flagged for a closer look

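Monocytes and macrophages lay on opposite sides of 0 for 6 pairs of member and comparison, and the difference between the classes was not tested in any of them. For RTT_PTGS12KO against RTT_ROSA26, the log2 ratio of Cxcl1 was 1.16 in monocytes and -1.18 in macrophages, and that of Cxcl2 was 0.37 and -0.20. For NTT against RTT, Cxcl2 was at 0.25 in monocytes and -1.57 in macrophages, and Cxcl3 at 1.67 and -0.61. For RTT_ROSA26 against RTT, Cxcl3 was at 1.29 in monocytes and -0.54 in macrophages, and Pf4 at 0.59 and -0.58. In the last comparison Infl_Mono lay on the macrophage side, at -1.25 for Cxcl3 and -0.59 for Pf4, and the monocyte sign came from the 54 Monocyte_1 cells of RTT_ROSA26, at 2.66 and 1.49. Without the 5% of cells with most UMIs the Pf4 monocyte value was -0.73. For NTT against RTT, Cxcl2 was at 0.65 in Monocyte_1 and -0.54 in Infl_Mono. The monocyte values of RTT_ROSA26 come from 144 cells, and those for Cxcl1 and Cxcl3 from 9 and 45 UMIs.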

How the results depend on the processing

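The 27 log2 ratios past 2-fold in all cells, monocytes and macrophages were recomputed under 11 settings, and all 297 values kept their direction while 278 stayed past 2-fold. The other 17 ratios kept their direction in 180 of 187 values. The counts of members past 2-fold in macrophages, 4, 3 and 2 for the 3 comparisons, moved by no more than 1.5 times under any alternative run. For RTT_PTGS12KO against RTT_ROSA26, the count over all cells was 4 and became 2 with every cell type weighted equally. In monocytes it was 2, and became 1 with CPM + 10, 1 without the 5% of cells with most UMIs, 1 with a minimum of 50 CPM and 5 with no minimum. The 5 include Cxcl5 and Cxcr2, with 7 and 41 UMIs in RTT_PTGS12KO and 0 in RTT_ROSA26. Setting those sums of 0 to 3 UMIs made RTT_ROSA26 the higher tumour, so no direction is read from these 2 genes. Leaving out 1 load gave a monocyte count of 1 to 2, with 1 without load 1 and without load 3. For RTT_ROSA26 against RTT in monocytes, the count was 3, and became 1 with CPM + 10, 1 with a minimum of 50 CPM and 5 at 1.5-fold. Where a minimum or a fold was changed, the number of genes that could count changed with it, and for the rest the cause was not tested. Cxcl3 in macrophages for NTT against RTT ranged from -2.69 without load 1 to 0.19 without load 3, and Pf4 in monocytes for RTT_ROSA26 against RTT was -0.73 without the cells with most UMIs. No paired analysis was possible because the labels give 1 sample for every line. Depth limits Cxcl5, Ppbp outside the resistant tumours' macrophages, and the monocytes of RTT_ROSA26.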
